A study of Mus musculus with 6 samples.

Results

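The genes described here are the mouse Cyp3a cytochromes P450, their main transcriptional regulator PXR (gene Nr1i2), and the P450 reductase gene Por, in the liver of mice lacking cGMP-dependent protein kinase 1 (cGK1). There were 9 listed genes. A gene was measured where the array annotation gave it a probe set with exactly 1 gene symbol, and of several such probe sets the brightest over the 6 arrays was taken. This left 7 of the 9 genes, among 22180 genes measured in the same way, namely Nr1i2, Cyp3a11, Cyp3a13, Cyp3a16, Cyp3a25, Cyp3a44 and Cyp3a59. Por and Cyp3a41a had no such probe set and were not analysed here as single genes.

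The 3 knockout samples are livers of male C57BL/6N mice aged 2 months that the sample labels call cGK1-KO. According to the series design, the kinase had been restored in the smooth muscle of these animals. The labels name no promoter for that rescue. The 3 control samples are livers of male C57BL/6N mice of the same age, called wild type in the sample labels and control mice in the design. The comparison asks how liver transcripts differ between these groups. Each sample is 1 array of total RNA, the values are log2 RMA expression, and n = 3 per group throughout. Nothing in the labels ties each replicate to an animal of its own. The p-values therefore reflect the scatter among these arrays alone, some of which may be technical.

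PXR is a nuclear receptor of hepatocytes and enterocytes that is activated by many drugs, steroids and bile acids. It pairs with the retinoid X receptor, binds repeats of a short hexamer in DNA, and raises transcription of Cyp3a genes and of other genes of drug clearance. Cyp3a enzymes sit in the endoplasmic reticulum and oxidise drugs, steroid hormones and bile acids, with electrons that P450 reductase takes from NADPH. In adult mouse liver Cyp3a11 is the main form, Cyp3a13 is made in liver and intestine, Cyp3a41 and Cyp3a44 are known as female-predominant, and Cyp3a16 is known from fetal and newborn liver. Inflammation is known to lower hepatic PXR and Cyp3a transcripts.

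Hepatocyte markers checked the tissue label: 6 of 6 lay above the median level of all measured genes (3.55), and albumin (Alb) lay between 13.3 and 13.4 on all 6 arrays. Array medians lay between 3.11 and 3.16. Across genes, knockout replicate 3 correlated with the controls at 0.981 to 0.983 and with the other knockout arrays at 0.978 and 0.979, so it stood apart from its own group. Results without that array are given for some of the genes and lists below. With limma and Benjamini-Hochberg adjustment, 0 of the 22180 genes (0%) reached the 0.05 threshold, while 2334 had an unadjusted p under 0.05.

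The sequences of Cyp3a25 and Cyp3a59 are shown because the promoters of these 2 neighbouring protein-coding genes are nearly the same in letters while their transcripts differed in opposite directions, and that of Cyp3a11 because it is the main adult form. Each window runs from 250 bases before to 50 bases after a RefSeq gene start, 5′ to 3′ on the gene's strand, build GRCm38.p6. The window of Cyp3a25 is chr5:146009569-146009868 on the minus strand, that of Cyp3a59 is chr5:146079008-146079307 on the plus strand, and that of Cyp3a11 is chr5:145879805-145880104 on the minus strand. Capitals mark the nuclear receptor hexamers AGTTCA and AGGTCA on either strand (TGAACT and TGACCT on the other strand).
Cyp3a25: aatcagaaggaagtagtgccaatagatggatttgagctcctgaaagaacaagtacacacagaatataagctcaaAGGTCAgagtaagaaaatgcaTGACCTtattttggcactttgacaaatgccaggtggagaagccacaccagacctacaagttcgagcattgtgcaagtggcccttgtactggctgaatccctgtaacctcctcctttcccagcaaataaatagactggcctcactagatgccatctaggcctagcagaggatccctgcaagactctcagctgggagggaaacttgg
Cyp3a59: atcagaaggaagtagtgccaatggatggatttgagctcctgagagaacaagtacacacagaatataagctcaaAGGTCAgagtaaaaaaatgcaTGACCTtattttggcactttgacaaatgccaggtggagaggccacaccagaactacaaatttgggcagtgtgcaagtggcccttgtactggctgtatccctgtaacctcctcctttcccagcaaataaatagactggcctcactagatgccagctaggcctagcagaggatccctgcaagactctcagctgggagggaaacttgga
Cyp3a11: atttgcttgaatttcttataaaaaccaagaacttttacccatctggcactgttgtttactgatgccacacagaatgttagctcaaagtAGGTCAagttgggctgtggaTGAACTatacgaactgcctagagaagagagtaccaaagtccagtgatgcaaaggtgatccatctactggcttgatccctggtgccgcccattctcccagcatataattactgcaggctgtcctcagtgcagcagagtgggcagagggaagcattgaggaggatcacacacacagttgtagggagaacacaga

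The windows of Cyp3a25 and Cyp3a59 shared 288 identical bases in an alignment of 301 columns (95.7%). In both, AGGTCA was followed by TGACCT, starting 176 and 155 bases before the gene start in Cyp3a25 and 177 and 156 bases before it in Cyp3a59. The window of Cyp3a11 aligned with that of Cyp3a59 at 53.9% identity and held AGGTCA 162 bases and TGAACT 142 bases before the start. Of 27025 promoter windows of this length, 27.6% held at least 1 such hexamer and 5.10% held at least 2. All 9 listed genes had a promoter entry. The windows of 5 of them held a hexamer, those of Cyp3a11, Cyp3a25, Cyp3a59, Cyp3a41a and Cyp3a44, and no match was found in the windows of Cyp3a13, Cyp3a16, Nr1i2 and Por. Paired arrangements of these hexamers, an everted repeat with a spacer of 6 bases or a direct repeat with a spacer of 3 or 4, matched none of the members' windows and 3, 3 and 7 of the 27025 windows. A match is a description of letters, and no match says only that these letters are not in this window. The windows of Cyp3a16, Cyp3a41a and Cyp3a44 formed another like set, with pairwise identities of 92.1% to 93.4%.

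Nr1i2, encoding the receptor, had the widest gap between groups among the members, 0.22. Its log2 expression was 6.66, 6.75 and 6.99 in control replicates 1 to 3 and 6.39, 6.30 and 6.44 in knockout replicates 1 to 3. All 3 knockout arrays lay below all 3 control arrays, and the knockout arrays lay close together (SD 0.07, against 0.17 in the controls). The log2 difference, knockout minus control, was -0.42 (SE 0.14, 95% interval -0.73 to -0.11), a 1.34-fold lower mean. It lay at an unadjusted p of 0.0127 and did not pass after adjustment over all genes (limma adjusted p = 0.348). In whole liver, fewer cells of a type and less RNA per cell cannot be told apart, here and in all results that follow.

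Cyp3a13 and Cyp3a59 had the largest positive differences. Cyp3a13, a form made in liver and intestine, lay at 8.20, 8.51 and 8.06 in control replicates 1 to 3 and at 8.67, 9.12 and 8.85 in knockout replicates 1 to 3. Every knockout array lay above every control array, and within each group replicate 2 was the highest. The log2 difference was 0.63 (SE 0.17, 95% interval 0.24 to 1.01), a 1.54-fold higher mean, with an unadjusted p of 0.00491 and a limma adjusted p of 0.300. Cyp3a59, a gene at the end of the Cyp3a cluster, lay at 5.69, 5.20 and 5.58 in the controls and at 5.89, 6.26 and 6.21 in the knockouts. Here too the groups did not overlap, and the gap between the lowest knockout and the highest control array was 0.20. Its log2 difference was 0.63 (SE 0.17, 95% interval 0.24 to 1.02), with an unadjusted p of 0.00495 and a limma adjusted p of 0.300.

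Cyp3a25, a liver form that lies between Cyp3a11 and Cyp3a59 in the cluster, differed in the other direction. Expression was 8.29, 8.28 and 8.78 in control replicates 1 to 3 and 7.96, 8.26 and 7.58 in knockout replicates 1 to 3. The groups did not overlap, but knockout replicate 2 lay only 0.025 below the lowest control array. The log2 difference was -0.52 (SE 0.21, 95% interval -0.99 to -0.06), a 1.43-fold lower mean, with an unadjusted p of 0.0319 and a limma adjusted p of 0.426. Without knockout replicate 3, the lowest array, it was -0.34, and without control replicate 3, the highest, it was -0.36.

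Cyp3a11, the main adult form and a classical PXR target, lay at 9.45, 9.09 and 9.40 in the controls and at 9.72, 9.43 and 9.78 in the knockouts. The groups overlapped, because knockout replicate 2 lay below control replicate 1. The log2 difference was 0.33 (SE 0.16, 95% interval -0.02 to 0.68), which spans a 0.985- to 1.60-fold ratio (unadjusted p = 0.0633, limma adjusted p = 0.497). Leaving out control replicate 2 brought the difference to 0.22.

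Cyp3a44, known as female-predominant, lay at 4.38, 3.52 and 4.03 in the controls and at 4.34, 3.71 and 4.69 in the knockouts. The arrays of each group spread over 0.86 and 0.98 log2 units, more than the difference of 0.27 (SE 0.28, limma adjusted p = 0.764). That difference was 0.053 without knockout replicate 3 and 0.045 without control replicate 2, but 0.54 without knockout replicate 2 and 0.47 without control replicate 1. Cyp3a16, the fetal and newborn form, lay at 0.96, 0.85 and 1.01 in the controls and at 1.56, 0.92 and 1.24 in the knockouts. These are levels near the bottom of the table (percentile 1.30 of all measured genes), so the size of its difference, 0.30 (SE 0.17, limma adjusted p = 0.574), is uncertain. It was 0.14 without knockout replicate 1 and 0.46 without knockout replicate 2. Cyp3a16 was the only measured member at or below the median level of all genes.

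**Figure D1:**
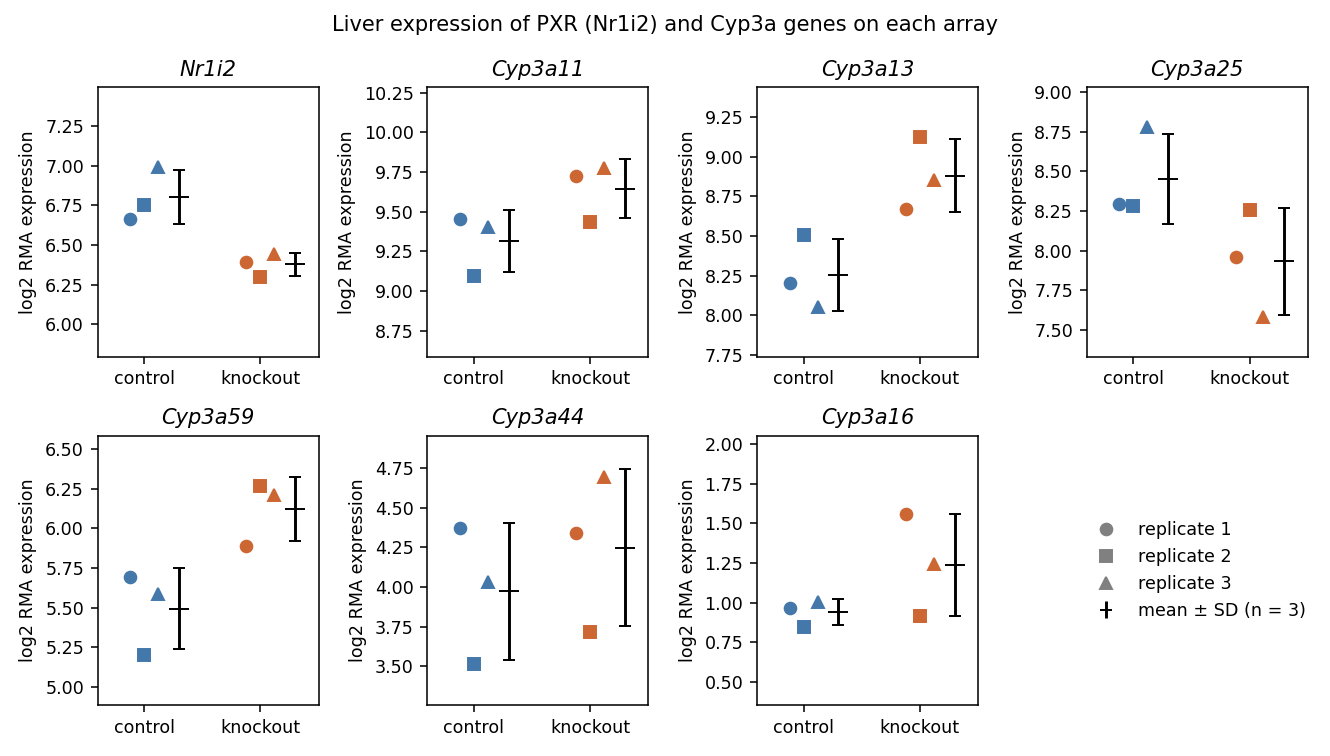
Log2 RMA expression of the 7 measured genes on each array, in separate panels that each span 1.7 log2 units. Points are arrays (control in blue, knockout in orange, replicate number by shape) and black bars are the mean ± SD of 3 arrays. The groups are apart for Nr1i2, Cyp3a13, Cyp3a25 and Cyp3a59 and overlap for Cyp3a11, Cyp3a44 and Cyp3a16.

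Over the 7 measured members, 0 passed an adjusted p of 0.05, as for all genes. At an unadjusted p under 0.05, 2 members were higher (Cyp3a13 and Cyp3a59), where 5.06% of all genes were, and 2 were lower (Nr1i2 and Cyp3a25), where 5.46% were. All knockout arrays lay above all control arrays for 2 members (7.61% of all genes) and below them for 2 (9.14% of all genes). The median difference of the 7 members was 0.30, against 0.0011 over all genes. The direction of each member was the same in every alternative analysis that tested it, 11 for Cyp3a16 and 12 for each other member. For Cyp3a13 and Cyp3a59 the unadjusted p was under 0.05 in 12 of 12, for Nr1i2 in 11 of 12, for Cyp3a25 in 8 of 12 and for Cyp3a11 in 3 of 12. No alternative brought a member under an adjusted p of 0.05, and the lowest adjusted p reached was 0.162. The exact 2-sided permutation test over samples gave 0.1, the smallest p that 3 against 3 arrays allow, for Nr1i2, Cyp3a13, Cyp3a25 and Cyp3a59, and 0.2 for Cyp3a11, 0.3 for Cyp3a16 and 0.6 for Cyp3a44.

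**Figure D2:**
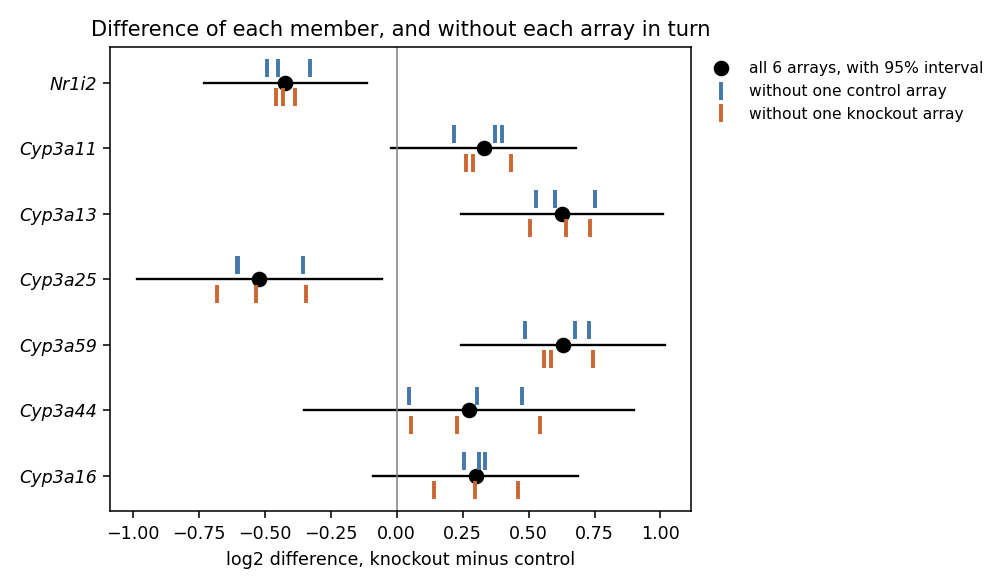
Log2 difference, knockout minus control, for each measured gene. Black points are the limma estimates from 6 arrays with their 95% intervals, and coloured ticks are the estimates without 1 control array (blue) or 1 knockout array (orange). Every tick lies on the same side of 0 as its black point, and the ticks of Cyp3a44 reach down to 0.045.

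Members were also set against each other within each array, which removes any shift that an array gives to all its probe sets. The knockout minus control difference of Cyp3a25 less that of its neighbour Cyp3a59 was -1.15. Cyp3a25 minus Cyp3a59 was 2.60, 3.08 and 3.20 in the control arrays and 2.07, 1.99 and 1.37 in the knockout arrays, so the groups did not overlap. For Cyp3a11 less Cyp3a25 the difference between groups was 0.85, and for Cyp3a13 less Cyp3a25 it was 1.15. Cyp3a11 less Nr1i2, the enzyme gene against its receptor gene, differed by 0.75, at 2.79, 2.34 and 2.41 in the controls and 3.33, 3.13 and 3.33 in the knockouts. Of the 21 pairs of members, 7 reached the smallest exact 2-sided permutation p of 0.1, which is 0.3 after Benjamini-Hochberg adjustment over the 21 pairs. These 7 were Cyp3a25 against Cyp3a11, Cyp3a13 and Cyp3a59, and Nr1i2 against Cyp3a11, Cyp3a13, Cyp3a16 and Cyp3a59. Each sets a member with a negative difference against a member with a positive difference, so the pairs are not independent of the single-gene values. The share of other gene pairs that separate in this way was not computed. Cyp3a25 and Nr1i2, both lower, differed from each other by -0.10 (exact permutation p = 0.8).

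The Cyp3a genes other than Cyp3a13 lie in a cluster on chromosome 5, which holds 8 protein-coding Cyp3a genes from Cyp3a57 to Cyp3a59 in the RefSeq assembly GRCm38.p6. Cyp3a13 lies elsewhere on the same chromosome. Cyp3a57, which is not among the listed genes, was as dim as Cyp3a16 and differed by -0.03. The annotation gave 2 further probe sets to 4 genes at once, the 4 being Cyp3a11, Cyp3a41a, Cyp3a41b and Cyp3a44, and their signal cannot be assigned to a single one. The first lay at 9.58, 9.31 and 9.59 in the controls and 10.03, 9.73 and 9.84 in the knockouts, with a difference of 0.37 (SE 0.15). The second lay at 9.08, 8.82 and 9.06 in the controls and 9.47, 9.18 and 9.35 in the knockouts, with a difference of 0.34 (SE 0.15). In a fit over all probe sets the limma adjusted p was 0.538 and 0.553. On both, every knockout array lay above every control array, and the differences lay near that of the Cyp3a11 probe set (0.33). Because the array treats these genes as sharing probes, values of single Cyp3a genes can include signal from near-identical family members.

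**Figure D3:**
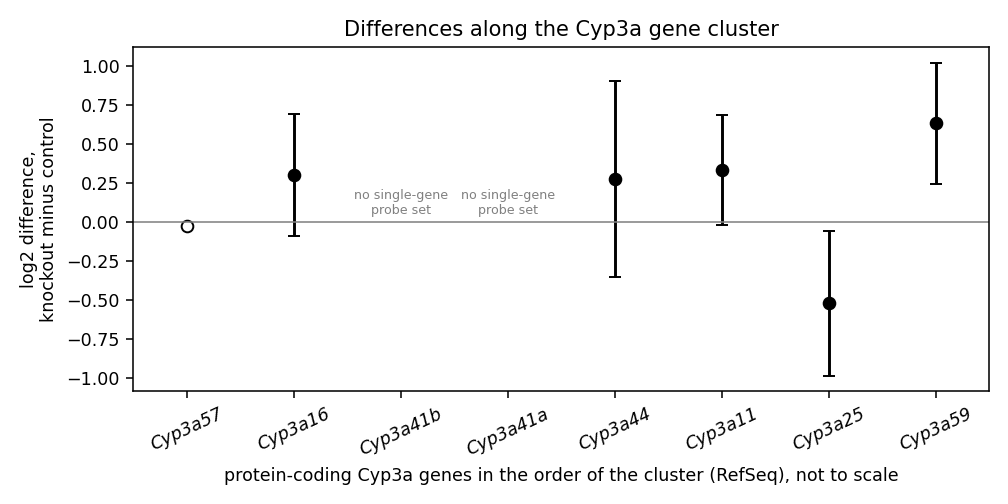
Log2 difference, knockout minus control, of the 8 protein-coding Cyp3a genes of the cluster in their RefSeq order, spaced evenly and not to scale. Filled points are measured members with their limma 95% intervals, the open circle is Cyp3a57, a dim gene outside the list, and Cyp3a41a and Cyp3a41b have no probe set of their own. Cyp3a25 lies below 0 between Cyp3a11 and Cyp3a59, which lie above 0.

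Across the 6 arrays, Cyp3a11 varied most like Cyp3a44 (Pearson r 0.87) and Cyp3a16 (0.82) among the members. Cyp3a13 and Nr1i2 varied in opposite ways (r -0.90), as did Cyp3a59 and Nr1i2 (r -0.77), while Cyp3a25 and Nr1i2 varied together (r 0.72). These correlations describe 6 arrays that fall into 2 groups and share their normalization. Among the 11089 other genes above the median level, the patterns most like that of Cyp3a11 were those of Dhrs7 (r 0.992), Usp28 (0.989) and Itga5 (0.979). Those most like Nr1i2 were Me1, the malic enzyme gene (0.990), Gcgr, the glucagon receptor gene (0.990), and Bcap31 (0.989).

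Differences of the genes that work with PXR lay closer to 0 than that of Nr1i2 (-0.42). Of 13 measured partners and coregulators, 5 had positive and 8 negative differences, with a median of -0.06 and a range of -0.36 to 0.28. At an unadjusted p under 0.05 there was 1, Hnf4a, encoding the hepatocyte nuclear receptor that also drives Nr1i2 and Cyp3a transcription, at 9.74, 9.66 and 9.75 in the controls and 9.32, 9.24 and 9.52 in the knockouts. Its log2 difference was -0.36 (SE 0.13, limma adjusted p = 0.399), and the groups did not overlap. The heterodimer partner gene Rxra, chosen after its values were seen, differed by -0.07. Without knockout replicate 3, 2 of the 13 were higher and 1 lower at that level. With all arrays, 5.06% of all measured genes were higher and 5.46% lower at that level. These shares stand beside the counts from all arrays, here and in the lists that follow. The shares at that level without knockout replicate 3 were not computed.

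Genes outside the Cyp3a subfamily that respond to PXR split in both directions. Of 17 measured, 9 differences were positive and 8 negative, the median was 0.0069, and 3 were higher and 4 lower at an unadjusted p under 0.05. Higher were Cyp2b10, a P450 gene shared with the receptor CAR (0.98), the lipogenic gene Thrsp (0.68) and the fatty acid transporter gene Cd36 (1.23). Lower were the stress gene Gadd45b (-0.91), the aldehyde dehydrogenase gene Aldh1a7 (-0.56) and Aldh1a1 (-0.56, chosen after its values were seen), and Alas1 (-0.57), which encodes the first enzyme of heme synthesis. After adjustment over all genes 0 of the 17 passed, and without knockout replicate 3, Cd36 did, where 66 of all 22180 genes did. The efflux pump gene Abcb1a, a PXR target chosen after its values were seen, differed by 0.0069.

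Por itself was not analysed here, and its place was taken by other genes of electron transfer to P450 enzymes and of heme synthesis. Of 12 measured, 10 had negative differences, with a median of -0.14. Over all genes 11047 of 22180 differences were negative. All 12 lay above the median level of all genes, and the genes above that level had a median difference of -0.05. Of the 12, 2 were at an unadjusted p under 0.05, both lower. Alas1 lay at 9.40, 9.62 and 9.59 in the controls and 9.31, 8.73 and 8.86 in the knockouts (limma adjusted p = 0.329). Cpox, encoding coproporphyrinogen oxidase, lay at 8.51, 8.61 and 8.46 in the controls and 8.24, 8.11 and 7.95 in the knockouts (log2 difference -0.42, SE 0.13, limma adjusted p = 0.346). Knockout arrays lay below all controls in both genes. Cytochrome b5 (Cyb5a), an electron donor beside the reductase and chosen after its values were seen, differed by -0.14.

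**Figure D4:**
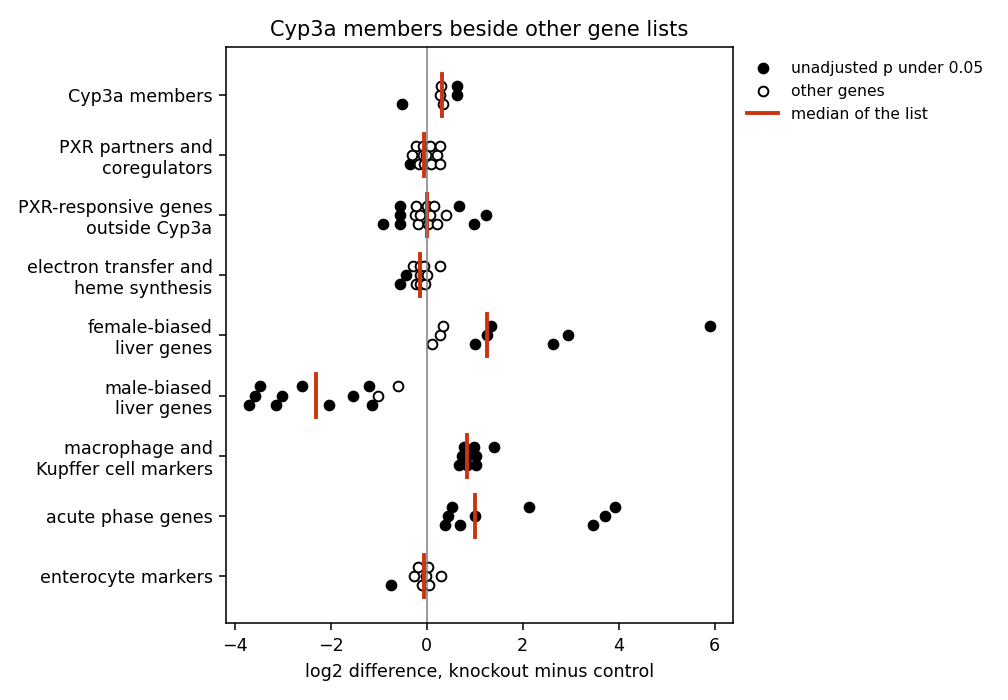
Log2 difference, knockout minus control, of single genes (points) in the Cyp3a subfamily and in 8 other lists. Filled points are genes at an unadjusted p under 0.05, and red lines are the medians of the lists. The median of the 6 Cyp3a genes is 0.31, and the sex-biased, macrophage and acute phase lists spread further from 0.

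Sex-biased liver genes outside the subfamily differed by very unequal amounts. All 9 measured female-biased genes had positive differences, with a median of 1.26, and 6 were higher at an unadjusted p under 0.05: Cyp2b9 (5.90), Slc22a26 (2.94), Cyp2b13 (2.64), Cyp2a4 (1.34), Sult2a1 (1.26) and Sult3a1 (1.01). The other 3, chosen after their values were seen, were Hao2 (0.33), Cux2 (0.28) and A1bg (0.11). Sult3a1, Sult2a1, Hao2 and A1bg, 4 of the 9, lay at or below the median level of all genes. The sizes of their differences are therefore uncertain, and the list median of 1.26 is the value of Sult2a1. The female-predominant Cyp3a44 lay at 0.27, and the 2 shared probe sets that include Cyp3a41a at 0.37 and 0.34. These values lay below the first 6 and among or above the last 3, a comparison of values with no test. Without knockout replicate 3 the Cyp3a44 difference was 0.053. The shared probe sets are also assigned to Cyp3a11, so their values are not those of female-predominant genes alone. All 12 male-biased genes had negative differences, with a median of -2.32, and 10 were lower at an unadjusted p under 0.05. The 6 with the smallest p were Elovl3 (-3.70), Cyp7b1 (-3.02), Cyp4a12b (-3.14), Mup21 (-3.47), C6 (-2.03) and Selenbp2 (-1.14). After adjustment over all genes 0 of these 21 passed.

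In both lists the array labelled knockout replicate 3 had values closer to control levels. It was the knockout array nearest the control mean for 12 of 12 male-biased and 6 of 9 female-biased genes, and it lay within the range of the controls for 4 and 2 of them. This was not particular to sex-biased genes. Knockout replicate 3 was also the nearest for 9 of 9 macrophage and Kupffer cell markers and 8 of 9 acute phase genes, described below. The share over all genes was not computed. Mup21, a major urinary protein gene, lay at 1.86, 1.47 and 5.22 in knockout replicates 1 to 3 and at 6.62, 6.20 and 6.15 in the controls. Cyp2b13 lay at 6.11, 6.38 and 2.96 in the knockouts and at 2.29, 2.58 and 2.66 in the controls, so replicates 1 and 2 carry most of both differences. Without knockout replicate 3 the median was 1.56 over the female-biased and -3.13 over the male-biased genes, and 4 and 9 of them passed an adjusted p of 0.05 in limma. Over all genes, 66 of 22180 passed in that fit. No member did so without that array. The part of sex-biased expression in the Cyp3a values was not tested.

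Markers of other cells and of inflammation differed beside the members. All 9 measured acute phase genes were higher at an unadjusted p under 0.05, with a median of 1.01, led by Apcs (2.14), Lcn2 (3.70), Orm2 (3.46), Itih4 (1.01), Saa2 (3.91) and Hpx (0.53). Their summed level on the log2 scale was 13.6 to 13.8 in the controls and 14.1 to 14.9 in the knockouts. All 9 macrophage and Kupffer cell markers were higher in the same way, with a median of 0.84, led by C1qa (0.84), Marco (0.74), Cd68 (0.98), Cd5l (2.64-fold), Vsig4 (1.03) and Adgre1 (1.03). Their summed level was 8.84 to 9.06 in the controls and 9.36 to 10.6 in the knockouts. None of these 18 genes passed after adjustment over all genes, while without knockout replicate 3, 4 acute phase genes and 2 macrophage markers did. In that fit 66 of all 22180 genes passed.

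The summed level of 6 hepatocyte markers was 14.8 to 14.9 in the controls and 14.75 to 14.77 in the knockouts, and 1 of the 6, Tat, was lower at an unadjusted p under 0.05 (-0.38). Enterocyte markers were read because Cyp3a13 is also made in intestine, and a link of their levels to Cyp3a13 was not tested. Of these 8, 5 lay at or below the median level of all genes and 1, Fabp2, was lower at that p (-0.75). Fabp2, a fatty acid binding protein gene, was the brightest of them, at 8.52, 8.53 and 8.32 in the controls and 7.92, 7.76 and 7.45 in the knockouts, and it sets most of their summed level of 8.57 to 8.75 against 7.89 to 8.23. Among the other cell types, 1 of 8 stellate cell markers was lower at an unadjusted p under 0.05 (Acta2, -0.39). Over all genes, 5.46% were lower and 5.06% higher at that level. The markers higher at that level were 1 of 5 endothelial (Lyve1, 0.92), 3 of 5 neutrophil (Mmp8, 0.74, S100a8, 0.46, and Retnlg, 0.59) and 1 of 4 lymphocyte markers (Cd3e, 0.61), and 0 of 4 cholangiocyte markers lay under it. All 5 neutrophil markers were at or below the median level of all genes. Without knockout replicate 3, 2 stellate cell markers were higher and 0 lower at an unadjusted p under 0.05. The enterocyte markers then had 1 higher and 1 lower, and 2 neutrophil markers were higher. The share of all genes at that level was not computed without that array. The part of inflammation and of macrophage content in the values of Nr1i2 and the Cyp3a genes was not tested.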

How the data were processed

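The authors deposited 1 table of log2 expression values for 41345 probe sets on 6 arrays. Per the submitters' processing notes, these were made with Affymetrix Expression Console 1.4.1 and RMA, which corrects background, quantile-normalizes the arrays and gives 1 value per probe set. Per the labels' protocols, labelled cRNA came from 100 ng of total RNA. Because RMA equalises the arrays, a shift of most transcripts one way would not show. No source used here names the build behind the probe sets.

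Probe sets were named from the platform annotation: 23521 had 1 symbol, 1814 several, and 16010 were not in it. Groups were compared with limma 3.58.1 (lmFit, eBayes; R 4.3.3) over 22180 genes, without a filter on dim genes, with 2-sided p-values and Benjamini-Hochberg adjustment at 0.05. The test was checked on simulated data with known shifts. No 2 arrays were identical. Precision is limited by having 3 arrays a group. The alternatives were a replicate block, an intensity trend in the variance, a filter on dim genes, median centring, quantile normalization, the mean of a gene's probe sets, and leaving out each array in turn.

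Promoter windows are from RefSeq (GRCm38.p6) and were aligned globally with Biopython 1.88. Genes were named by a rule: every member, and in each context list the genes at an unadjusted p under 0.05 (up to 6, smallest p first). The text says where a gene outside this rule was picked with its values in view. Gene lists were also read without knockout replicate 3, an alternative chosen after seeing the data. Likeness was read from the 3 highest correlations. The members and lists were chosen with earlier results of these data known.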

Additional observations from a re-analysis of the deposited data

How the results depend on the processing

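The direction of every member held in all 83 values from the 12 alternatives, and no member passed an adjusted p of 0.05 in any of them; the filter on dim genes removed Cyp3a16, so 6 members were tested there. Over all genes the count past an adjusted p of 0.05, 0 with all arrays, was 25 with an intensity trend in the variance, 16 with the filter on dim genes, and 0 to 66 when 1 array was left out (66 without knockout replicate 3, 3 without control replicate 3, 0 without each of the others). At an unadjusted p under 0.05 the count of higher members, 2 with all arrays, was 2 to 4 with 1 array left out, and 4 without knockout replicate 2, when Cyp3a11 (0.44) and Cyp3a16 (0.46) joined. The count of lower members, also 2, was 0 to 2. It was 1 without knockout replicate 1 and 1 without knockout replicate 3, where Cyp3a25 dropped out, and 0 without control replicate 3, where Nr1i2 (-0.33) dropped out too. The count of lower members thus rests on single arrays, while that of higher members did not fall below 2. The cause was not tested.

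With the replicate number as a block, 1 gene passed over all genes. At an unadjusted p under 0.05, 1 member, Nr1i2, was lower. At the same level 3 were higher, as Cyp3a11 joined (limma unadjusted p = 0.0439). Correlations of deviations across genes were 0.0064, 0.0525 and 0.0154 for same-numbered arrays. For arrays of unlike number they lay between -0.0455 and 0.0293. All these values are small and rest on few arrays, so they cannot decide whether the numbers pair the samples. The other alternatives changed no count of members by more than 1.5 times. Dim signal limits Cyp3a16.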
